A study of Mus musculus with 4 samples.

Results

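The transcripts described here belong to 9 transcription factor genes that carry the output of the circadian clock or feed it back on the clock: Dbp, Tef, Hlf, Nfil3, Nr1d1, Nr1d2, Rora, Bhlhe40 and Bhlhe41. They were taken by symbol from a table of 55487 genes, and each of the 9 symbols matched a single row. The names were chosen by family with measured values in view, namely the differences in normalized read count between knockout and control islets in these same libraries. The differences of the 9 genes between genotypes are therefore given as a description, and the counts of members past a threshold, printed beside the share of all genes, support nothing here.

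The RNA came from pancreatic islets, the clusters of hormone-secreting cells in the pancreas, isolated fresh from C57BL/6 mice aged 30 weeks. The 2 control libraries came from Ggcx flox/flox mice, whose Ggcx gene is flanked by loxP sites and stays intact without Cre. The 2 knockout libraries came from Ggcx flox/flox; Pdx1-Cre mice, in which the Pdx1 promoter drives Cre recombinase in the pancreatic lineage and not in beta cells alone. Islets of 2 mice were combined in each library, which gives n = 2 pools for each genotype. Both genotypes carry the floxed allele, and Cre without the floxed allele is not among these groups, so the transgene and the loss of Ggcx cannot be told apart. The labels do not give the hour at which islets were collected. The control libraries are called columns 2 and 3, after their numbers in the deposited table, because those numbers do not match the control numbers in the labels.

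The circadian clock is a feedback loop of transcription in which CLOCK and ARNTL (BMAL1) bind E-boxes and switch on the Per, Cry, Nr1d, Dec and PAR-bZIP genes. DBP, TEF and HLF, the PAR-bZIP activators, bind D-box sites, and NFIL3 competes for the same sites as a repressor. REV-ERB repressors (Nr1d1, Nr1d2) and ROR activators (such as Rora and Rorb) compete for ROR response elements, among them those of the Arntl gene. The DEC repressors (Bhlhe40, Bhlhe41) compete for E-boxes. Islets hold a clock of their own, which is known to time insulin secretion over the day.

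The sequences upstream of the start sites are shown because several members moved together, and the letters that clock factors bind could be looked for there. RefSeq promoters of the GRCm38.p6 build matched 8 of the 9 members, with 2 start sites for Tef, and Bhlhe40 had no entry. The 250 bases before each start were searched on both strands for the E-box CACGTG, the E′-box CACGTT, the D-box TTATGTAA or TTACGTAA, the ROR element TAGGTCA or TGGGTCA, and the cAMP response element TGACGTCA. None of these motifs contains another, and a match describes letters only. Capitals mark the matches, all lines read 5′ to 3′ on the gene's strand, and bases inside an annotated exon of the same gene were left off.
Nr1d1 (chr11:98775378-98775627, minus strand): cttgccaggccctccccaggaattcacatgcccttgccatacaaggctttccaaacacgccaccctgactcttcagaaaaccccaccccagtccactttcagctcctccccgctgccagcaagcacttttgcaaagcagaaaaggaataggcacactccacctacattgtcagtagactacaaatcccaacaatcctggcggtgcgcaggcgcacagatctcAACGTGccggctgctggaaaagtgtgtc
Tef, second start (chr15:81811164-81811413, plus strand): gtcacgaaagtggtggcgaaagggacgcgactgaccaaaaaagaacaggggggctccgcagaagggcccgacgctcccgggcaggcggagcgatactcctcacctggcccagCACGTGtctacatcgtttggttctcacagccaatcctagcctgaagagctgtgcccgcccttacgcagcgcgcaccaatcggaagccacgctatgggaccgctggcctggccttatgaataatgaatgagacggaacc
Bhlhe41 (chr6:145865559-145865670, minus strand): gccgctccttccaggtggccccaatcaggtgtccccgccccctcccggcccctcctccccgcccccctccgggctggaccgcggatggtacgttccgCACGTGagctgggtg
Hlf (chr11:90390918-90391167, minus strand): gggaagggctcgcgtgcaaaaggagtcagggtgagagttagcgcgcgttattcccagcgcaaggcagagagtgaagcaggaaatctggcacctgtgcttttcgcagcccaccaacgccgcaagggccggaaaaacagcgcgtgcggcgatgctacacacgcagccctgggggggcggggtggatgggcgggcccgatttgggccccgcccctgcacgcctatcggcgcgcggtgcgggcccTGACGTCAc
Dbp (chr7:45704997-45705087, plus strand): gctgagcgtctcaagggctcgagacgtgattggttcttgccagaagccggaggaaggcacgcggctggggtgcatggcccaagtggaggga

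An E-box stood in 3 of the 9 member windows, both Tef starts and Bhlhe41, against 6.02% of 32851 promoter windows. Those 3 windows belong to 2 genes, and the first Tef window lies wholly in an annotated Tef exon and is not shown. Nr1d1 held an E′-box 28 to 23 bases before its start, a motif in 3.85% of all windows. Hlf held a cAMP response element 9 to 2 bases before its start (1.55% of all windows). Nfil3 held a ROR element on the opposite strand, TGACCTA, 12 to 6 bases before its start (5.38% of all windows); those bases lie in an annotated exon and are not shown. No D-box letters were found in the 9 windows, and 0.931% of all windows held them. The windows of Dbp, Nr1d2 and Rora held none of these letters.

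Values are read counts normalized to library size by the authors. Total reads ranged from 47624630 to 51756221 per library. Each of the 9 members passed the filter on low values (at least 10 in at least 2 libraries), as did 16589 genes in all. The fewest reads of a member in a library were 576, for Hlf, whose counting error was then 4.17%. Ggcx, the targeted gene, stood at 3971 and 3981 in controls and at 234.2 and 643.4 in knockouts. Across all tested genes limma with Benjamini-Hochberg adjustment called 41 higher and 62 lower, or 57 and 55 with libraries scaled to the same upper quartile. Markers of some other cell types differed between genotypes. Of all tested genes, 49.9% had a log2 fold change below 0, 0.374% were called lower and 0.247% higher. For acinar markers, 10 of 10 tested were below 0, with 1 (Try4) called. Their summed level was 14636 to 16365 in controls and 7214 to 12202 in knockouts. All 7 alpha cell markers were above 0, with Gria3 called, and summed to 1172858 to 1369349 and 1381692 to 1664255. Of 9 stellate and fibroblast markers 8 were above 0, with Dcn called, and summed to 10613 to 12389 and 12800 to 13386. Of 5 delta cell markers 4 were above 0, with Rbp4 called, and summed to 130837 to 132258 and 135983 to 148029. Both PP and epsilon cell markers were above 0, with Ghrl called at a log2 fold change of 1.16. Their sums overlapped between genotypes, at 101584 and 62253 in controls and 100465 and 117833 in knockouts. All 5 Schwann cell and glia markers were above 0, with none called and a median of 0.58. The Dcn call was lost without control column 3, and the Rbp4 call without control column 3 or without either knockout library. No duct, endothelial, macrophage or lymphocyte marker was called. The 10 beta cell markers split evenly, 5 below 0 and none called, and Ins1, Ins2, Gcg and Sst, the defining islet hormone genes, were present in all libraries. No marker of these lists was at 0 in all libraries, and their part in the values below was not tested. In whole islets, fewer cells of a type and less RNA per cell cannot be told apart.

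All 3 PAR-bZIP activator transcripts were lower in both knockout libraries than in both control libraries. Dbp (ENSMUSG00000059824; GRCm38 chromosome 7, 45705088 to 45710203, plus strand) encodes D site albumin promoter binding protein, the member of the family with the widest daily swing in many tissues. Its normalized count was 1650 and 1502 in controls and 1160 and 1155 in knockouts. The knockout pair was almost level, and both fell short of the lower control. The knockout mean was 73.5% of the control mean, from 1576 ± 105 to 1158 ± 3.55 (SD, n = 2 each), a log2 fold change of -0.44 with a standard error of 0.07 on the log2(value + 1) scale. Leaving out a library moved it between -0.51 and -0.38. Exons of Dbp share 539 of their 2993 bases with Sphk2, which lies antisense to it. Sphk2 was at 2646 and 3101 in controls and 2494 and 2710 in knockouts, and the groups overlapped. Whether reads of Sphk2 are part of the Dbp count was not tested.

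Tef (ENSMUSG00000022389; chromosome 15, 81802421 to 81826863, plus strand) encodes thyrotroph embryonic factor. It stood at 2711 and 2878 in controls and at 2286 and 2299 in knockouts. The knockouts again lay close together and below both controls, at 82.0% of the control mean (log2 fold change -0.28, standard error 0.05). Hlf (ENSMUSG00000003949; chromosome 11, 90336536 to 90390895, minus strand), hepatic leukemia factor, was at 699 and 850 in controls and 599 and 612 in knockouts. The groups did not overlap, but the controls were spread more widely than for any other member, and the log2 fold change of -0.35 (standard error 0.10) became -0.21 without control column 3 and -0.49 without control column 2. The summed normalized count of the 3 activators was 5060 and 5230 in controls and 4046 and 4067 in knockouts.

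Nfil3 (ENSMUSG00000056749; chromosome 13, 52967209 to 52981073, minus strand), the repressor at the same D-box sites, also took lower values, by a smaller margin. Its normalized count was 7924 and 8694 in controls and 7204 and 7618 in knockouts. The groups did not overlap, but the gap between them was narrower than the spread of the controls. The mean was 8309 ± 544 and 7411 ± 293 (SD, n = 2 each), and the log2 fold change was -0.16 (standard error 0.06; -0.23 to -0.10 with a library left out).

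Both REV-ERB transcripts were lower in the knockout libraries. Nr1d1 (ENSMUSG00000020889; chromosome 11, 98767932 to 98775333, minus strand) encodes REV-ERB alpha, the heme-binding repressor of Arntl. Its normalized count was 11721 and 10399 in controls and 7944 and 8786 in knockouts. Both knockouts lay below both controls, and the libraries of each genotype were spread more widely than for Nr1d2. The mean was 11060 ± 934 and 8365 ± 595 (SD, n = 2 each), 75.6% of control, and the log2 fold change was -0.40 (standard error 0.07; -0.49 to -0.32 with a library left out). Exons of Nr1d1 share 263 bases with Thra, the thyroid hormone receptor alpha gene, which lies antisense to it. Whether counting used the strand is not given in the sources used here. Thra itself was at 1891 and 1940 in controls and 1883 and 2055 in knockouts, and the groups overlapped.

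Nr1d2 (ENSMUSG00000021775; chromosome 14, 18204054 to 18239127, minus strand) encodes REV-ERB beta. It was at 8834 and 8687 in controls and 7358 and 7643 in knockouts. The pairs were tight, and the gap between the groups was wider than the spread within either. The log2 fold change was -0.22 (standard error 0.05), or 85.6% of the control mean.

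Rora (ENSMUSG00000032238; chromosome 9, 68653786 to 69388246, plus strand) encodes the activator that competes with REV-ERB. Its normalized count was 5616 and 5954 in controls and 4855 and 4995 in knockouts. It was lower in both knockouts, as the REV-ERB transcripts were, with a log2 fold change of -0.23 (standard error 0.05). The related Rorb was near the limit of detection, with 1.02 and 10.7 in controls and 1.04 and 3.84 in knockouts, and was not tested.

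The 2 DEC repressors took opposite directions. Bhlhe41 (ENSMUSG00000030256; chromosome 6, 145858243 to 145865558, minus strand) was at 4952 and 5312 in controls and 4583 and 4622 in knockouts. It was lower in both knockouts, at 89.7% of the control mean (log2 fold change -0.16, standard error 0.05). Bhlhe40 (ENSMUSG00000030103; chromosome 6, 108660629 to 108666925, plus strand) was at 2817 and 2599 in controls and 2874 and 3005 in knockouts. It is the sole member with higher knockout values, and the lower knockout exceeded the higher control by less than the spread within the controls. Its log2 fold change was 0.12 (standard error 0.06; 0.06 to 0.18 with a library left out).

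**Figure D1:**
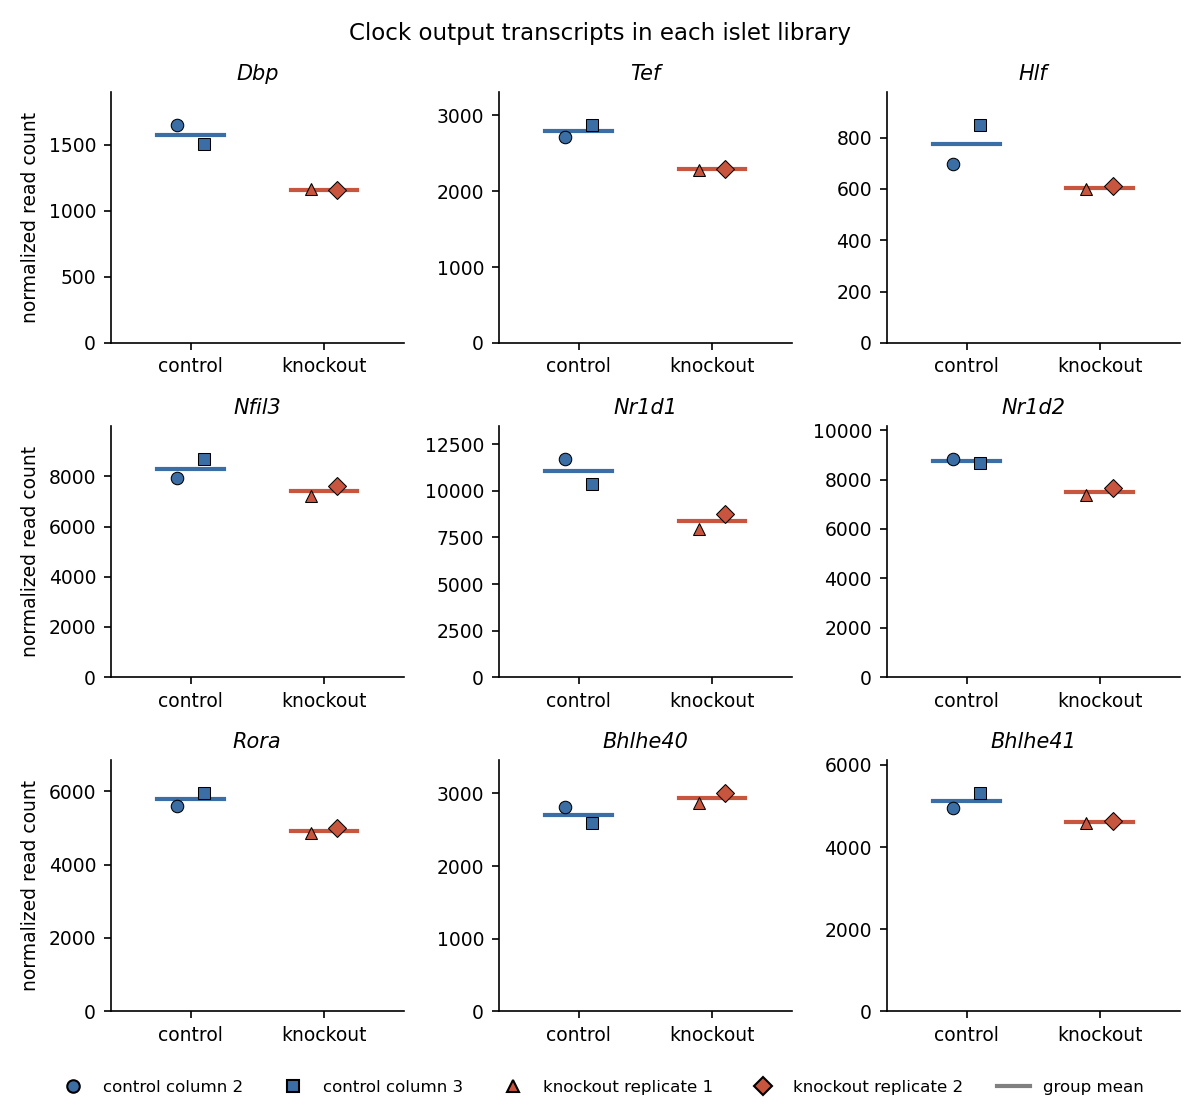
Normalized read count (vertical axis, from 0) of each of the 9 genes in the 2 control and 2 knockout libraries, with symbols for libraries and bars for group means. Knockout symbols lie below both controls in 8 panels and above them in that of Bhlhe40.

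Across the 9 genes, 8 had a log2 fold change below 0, with a median of -0.23 and a range from -0.44 (Dbp) to 0.12 (Bhlhe40). Over all 16589 tested genes 49.9% were below 0 and the median was 0.00. Groups did not overlap for 8 genes on the lower side, against 23.0% of tested genes, and for 1 on the higher side, against 22.0%. The limma threshold (adjusted p under 0.05) was met by 2 members, Dbp and Nr1d1, both lower, against 0.374% of tested genes on that side. None was called higher, against 0.247%. Because the genes were listed with this contrast known, nothing is read from these counts. An exact permutation of 2 against 2 libraries cannot go below p = 0.333 (two-sided) for any single gene. At an adjusted p under 0.05, the authors' deposited table had 5 members lower (Dbp, Tef, Nr1d1, Nr1d2 and Rora), against 1.52% of the genes with an adjusted p there.

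The count of members past the threshold moved with the test. It was 2 with edgeR on the recovered reads, 3 with robust empirical Bayes and 5 with DESeq2, where the shares of all tested genes on the lower side were 0.428%, 0.747% and 1.56%. It was 0 without the mean-variance trend of limma (0.00% of all tested genes) and with no filter on low values (0.00363%). Without control column 2 it was 4 (Dbp, Tef, Hlf and Rora), against 1.34% of all tested genes, and without knockout replicate 1 it was 1 (Dbp), against 0.466%, so Nr1d1 was lost in both. It stayed at 2 (Dbp and Nr1d1) without control column 3 and without knockout replicate 2, against 0.286% and 0.735%. The direction of each of the 9 genes was the same in all 15 fits. With groups that do not overlap, leaving out a library cannot turn a direction.

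Within genotypes the knockout pair was closer together than the control pair for 8 of 9 genes on the log2 scale, the exception being Nr1d2 (0.05 against 0.02), and for 54.9% of all tested genes. For Dbp, Tef, Hlf and Bhlhe41 the gap between the knockouts was smaller than the standard deviation that counting error alone gives. Knockout replicate 2 was above replicate 1 for 8 of 9 genes, the exception being Dbp, and for 50.1% of all tested genes. Among those 8 the gaps ran from 0.01 for Tef to 0.15 for Nr1d1 on the log2 scale. For Bhlhe40 this put replicate 2 further from the controls. Knockout replicate 2 also kept more Ggcx transcript than replicate 1, and a relation of these values to Ggcx was not tested. Between the controls, column 3 was higher for 5 genes (50.8% of all tested genes) and lower for Dbp, Nr1d1, Nr1d2 and Bhlhe40.

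**Figure D2:**
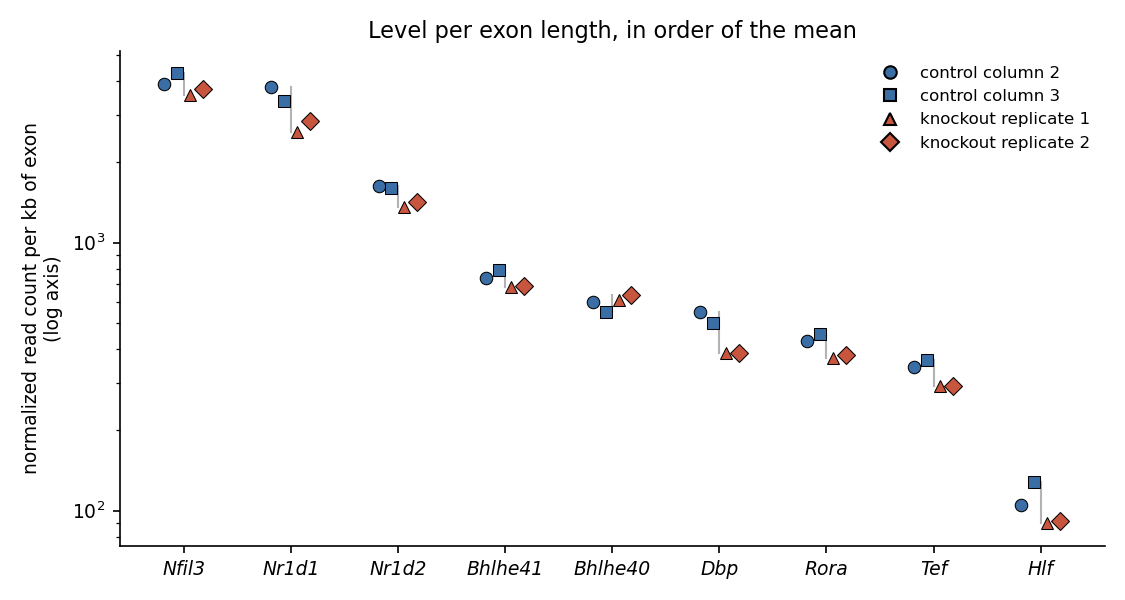
Normalized read count per kb of annotated exon (log axis) of each gene in the 4 libraries, ordered by the mean, with grey lines for the range. Nfil3 and Nr1d1 lead the order and overlap, and Hlf lies below all others.

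Levels of different genes were compared per kb of exon, which the rule for the list did not use. The order of mean levels was Nfil3 (3880 normalized counts per kb), Nr1d1 (3157), Nr1d2 (1503), Bhlhe41 (724), Bhlhe40 (600.2), Dbp (457), Rora (410), Tef (323) and Hlf (103). The 5 repressors took the upper 5 places in these islets, and the 4 activators took the lower 4. Ranges over the 4 libraries overlapped for Nfil3 with Nr1d1 and for Dbp with Rora, and these neighbours are not separated. The step from Bhlhe40 to Dbp was narrow, with the lowest library of Bhlhe40 at 552 and the highest of Dbp at 551. With the length of the longest transcript in place of all exons, 5 of 9 genes kept their place: Bhlhe40 then stood above Bhlhe41 and Tef above Rora. The means of Bhlhe41 and Dbp, neighbours across the split of repressors and activators, were then 794 and 744. Ranges over libraries were not compared at that length.

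**Figure D3:**
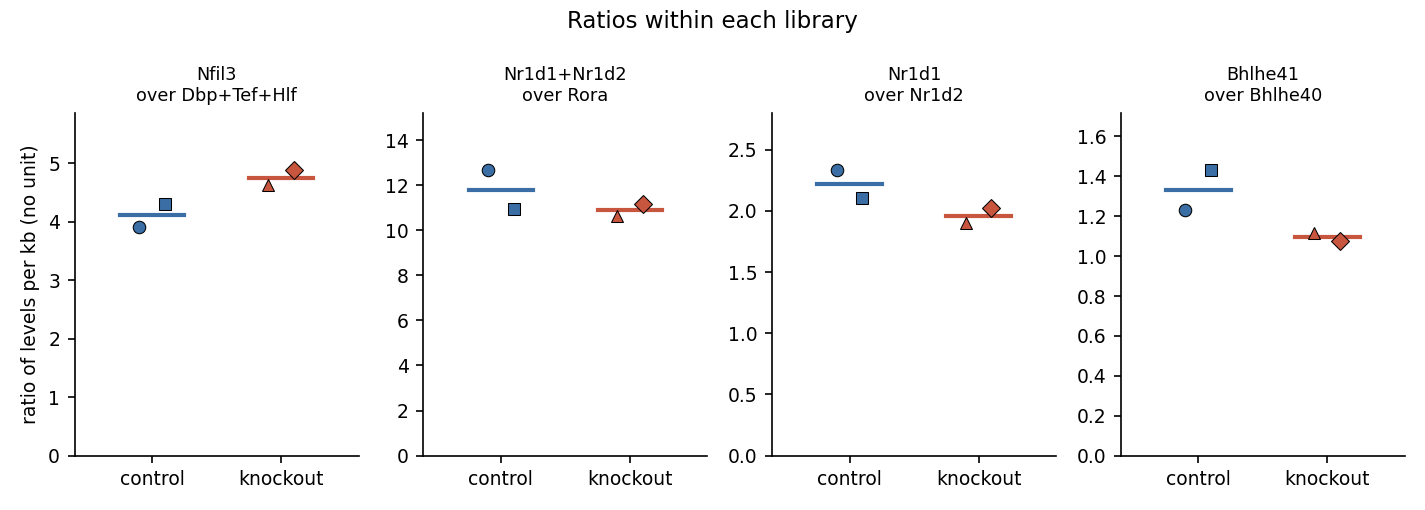
Ratio of levels per kb (vertical axis, no unit, from 0) within each library for 4 pairs of opposed or related members, with bars for group means. Nfil3 over the activators is higher in both knockouts, Nr1d1 over Nr1d2 and Bhlhe41 over Bhlhe40 are lower, and the groups overlap for Nr1d1+Nr1d2 over Rora.

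Ratios within a library, which no scaling of the library can change, were computed after the values were seen and are given as descriptions. Nfil3 over the sum of Dbp, Tef and Hlf was 3.91 and 4.31 in controls and 4.63 and 4.88 in knockouts. The ratio was higher in both knockouts, where all 4 transcripts were lower and Nfil3 by the least. Nr1d1 plus Nr1d2 over Rora was 12.7 and 10.9 in controls and 10.6 and 11.2 in knockouts, and the groups overlapped. Nr1d1 over Nr1d2 was 2.33 and 2.10 in controls and 1.90 and 2.02 in knockouts. Bhlhe41 over Bhlhe40 was 1.23 and 1.43 in controls and 1.12 and 1.08 in knockouts.

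The core clock genes were examined next: CLOCK, NPAS2 and the ARNTL proteins form its activating arm, and PER and CRY proteins repress that arm. Because this list and the lists below were also chosen with earlier results of these data known, nothing is read from their counts. Of 9 core clock genes, 1 was lower past the threshold, against 0.374% of all tested genes, and none was higher. A log2 fold change below 0 was found for 7 of the 9, against 49.9% of all tested genes, and the median was -0.12. Per2, a repressor of the loop, was at 3188 and 3425 in controls and 2098 and 2463 in knockouts. It fell by 0.54 on the log2 scale (standard error 0.08), with a limma adjusted p of 0.0366, a call that was lost without control column 3, without the trend and with no filter. Per1 was at 12711 and 14003 in controls and 9144 and 10783 in knockouts, or -0.43 on the log2 scale (limma adjusted p = 0.0560; -0.54 to -0.31 with a library left out, and past the threshold with DESeq2 and without control column 2 or knockout replicate 2). Cry1, another repressor, was at 1199 and 1434 against 1070 and 1003 (-0.34; adjusted p = 0.125 by limma). It was -0.21 without control column 3 and -0.47 without control column 2, where it passed the threshold (limma adjusted p = 0.0255). For these 3 genes both knockouts lay below both controls, as they did for Per3 (-0.16; 607 and 547 against 497 and 536), which was -0.08 without control column 2 and -0.23 without control column 3. Groups were thus apart on the lower side for 4 of 9 core clock genes, against 23.0% of all tested genes.

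In the activating arm of the loop the groups overlapped. Arntl, the REV-ERB and ROR target, was at 923 and 1043 in controls and 930 and 951 in knockouts, and Clock was at 7079 and 7385 against 7154 and 6478. Their log2 fold changes were -0.06 (standard error 0.08) and -0.09 (0.06), and the groups overlapped. Npas2 (0.03, standard error 0.13) and Arntl2 (0.05, 0.20) did not pass the test and overlapped too. Among the repressors the same held for Cry2 (-0.12, 0.08). Within a library, Dbp over Arntl per kb was 4.50 and 3.62 in controls and 3.13 and 3.05 in knockouts, and Nr1d1 over Arntl was 31.1 and 24.4 against 20.9 and 22.6. Ciart, an E-box-driven repressor of CLOCK and ARNTL, was at 393 and 401 in controls and 278 and 277 in knockouts, or -0.52 on the log2 scale (standard error 0.10; limma adjusted p = 0.0567). It had the steepest difference among the output genes named here and did not pass the threshold.

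**Figure D4:**
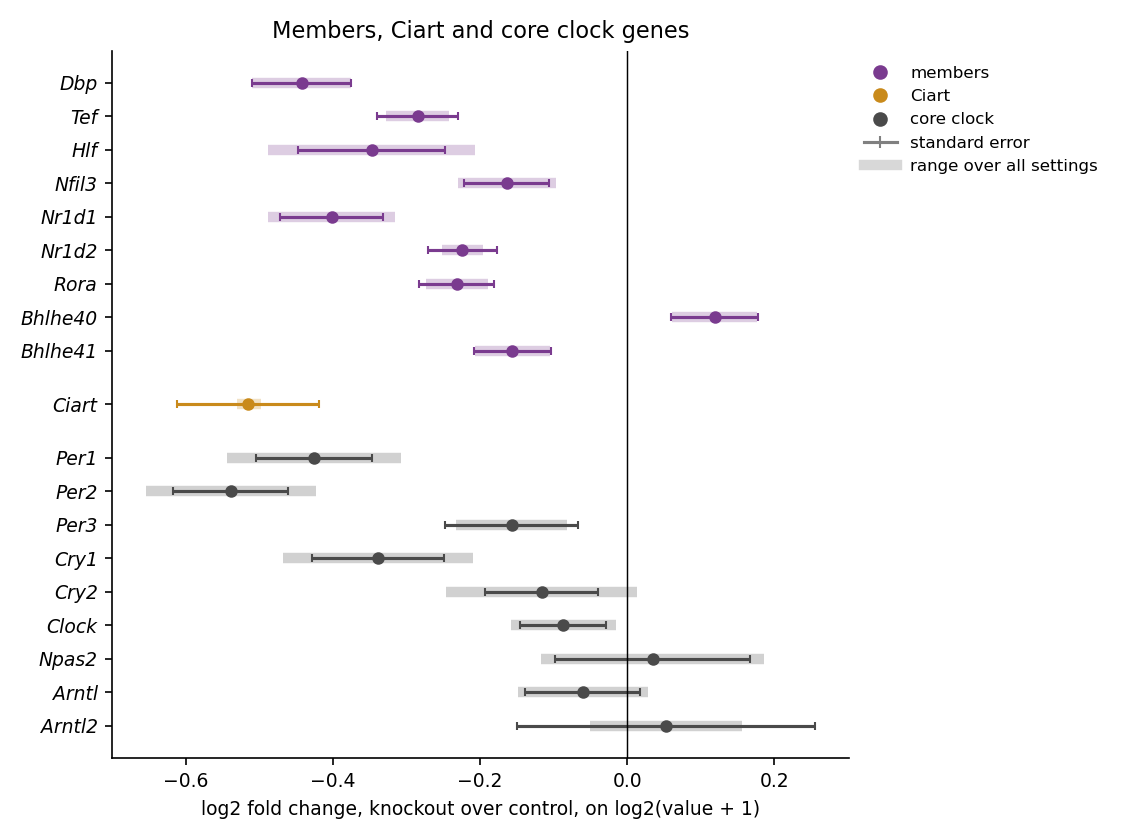
Log2 fold change of knockout over control (horizontal axis) with standard errors for the 9 members, Ciart and 9 core clock genes, with pale bars for the range over all settings. Dbp, Nr1d1, Ciart, Per1 and Per2 lie to the left, and Clock, Npas2, Arntl and Arntl2 lie around 0.

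Lists of proteins that act on the clock factors, and of other rhythmic genes, held no called member. Of 8 kinases and ubiquitin ligases none passed the test (median -0.07), with Csnk1a1 at -0.06 and Gsk3b at -0.07. Of 7 corepressors that REV-ERB or DEC proteins recruit none passed (median -0.06), with Tbl1x at 0.04 and Ncor1 at -0.13. Of 17 tested rhythmic output genes of other tissues none passed (median -0.06, 10 below 0); Herpud1, an ER stress protein gene, was at -0.26 and Klf9 at 0.04. Groups did not overlap for 7 of these 17 on the lower side and 3 on the higher side. The same counts were 5 and 1 for the 8 kinases and ubiquitin ligases, and 2 and 1 for the 7 corepressors. The shares of all tested genes were 23.0% and 22.0%.

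By profile over the 4 libraries, the genes most like Dbp among 12317 compared were Cdh4, Apobec4, Trib3, Smad6 and Tcea1-ps1. Likeness was the root mean square difference of log2 values centred on each gene's mean, which ran from 0.02 for Cdh4 to 0.05 for Tcea1-ps1, against 0.23 for Dbp from its own mean. Nr1d1 was 15th in that order, at 0.06, and Tef 204th, at 0.11. For Nr1d1 the nearest were Edrf1, Cdk6, Smad6, Nup93 and Fkbp7, from 0.02 to 0.03, and Dbp was 20th. With 4 libraries many genes share such a profile, and Smad6 stood in both lists.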

How the data were processed

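Poly(A)-enriched RNA was extracted on RNeasy Plus Mini columns and sequenced on Illumina instruments, per the labels' protocols. The GRCm38 build is named in the submitters' processing notes, with featureCounts 1.6.0, STAR 2.5.1b, DESeq2 1.22.2 and CASAVA 1.4 but no roles. Neither the annotation nor the use of strand is given in the sources used here. The authors deposited a normalized read count (a signal value, counts over a size factor, per the file headers) per gene and library. Each column was a whole multiple of its smallest nonzero value for 100% of values (tolerance 0.01), so reads were recovered. Also deposited were the authors' log2 fold change of control over knockout, its standard error and statistic (a score each), and a p-value with its adjusted value, used here only where named. Knockout columns matched samples by name, and control columns matched the group only. Columns of other samples numbered 0.

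The main test was limma 3.58.1 (R 4.3.3) on log2(value + 1) of the 16589 genes that reached 10 in 2 or more libraries. It was two-sided, moderated with a mean-variance trend (6.85 prior and 2 residual degrees of freedom) and adjusted over all of these genes by Benjamini-Hochberg at 0.05. Changes of low genes are understated by the pseudocount of 1. Count tests on recovered reads (edgeR 4.0.16, DESeq2 1.42.0, with 14407 adjusted p-values NA) were alternatives, as were other pseudocounts, filters, scalings, moderation settings and each library left out. The limma step was tested on simulated data. Libraries of a group differed beyond counting noise (chi-square over degrees of freedom 10.1 and 9.85 where a pair held at least 20 reads). The labels list each library as a separate pool of mice.

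Members and lists were chosen with earlier results of these data known. Named beside the 9 members were Ggcx, Rorb, Ciart, all core clock genes, up to 3 called genes of each pathway list or its 2 most abundant, and the 5 genes closest in profile to Dbp and to Nr1d1 with a mean of at least 50. Thra, Sphk2, Tsc22d3, Ddit4 and the called or defining cell type markers were named outside that rule, after their values were seen. Some genes that the rule or the lists name are not reported here. Exon lengths and positions are from GENCODE release M21 (GRCm38), which holds 99.5% of the identifiers, and promoter sequences from RefSeq (GRCm38.p6). Exons of 6 members overlap an antisense gene: Sphk2 for Dbp, Thra for Nr1d1, and little-studied noncoding or unclassified genes for Tef, Rora, Bhlhe40 and Bhlhe41. Bhlhe41 shared the most, 1280 of its 6720 exon bases, with a gene at 171 to 180 in the 4 libraries.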

Additional observations from a re-analysis of the deposited data

How the results depend on the processing

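Where groups do not overlap, as for all members, leaving out a library cannot turn a sign. The log2 fold changes of the 9 members kept their sign under all 14 alternatives. Leaving out a library moved them most, over -0.49 to -0.21 for Hlf, -0.23 to -0.10 for Nfil3, -0.21 to -0.11 for Bhlhe41 and 0.06 to 0.18 for Bhlhe40; filters, the trend and robust moderation cannot move them. Members called lower numbered 0 with no filter and 0 without the trend, where 0.00363% and 0.00% of tested genes were called lower. Members called lower numbered 1 with a common upper quartile (0.332% of tested genes), 1 with the filter raised to 50 (0.238%) and 5 with DESeq2 (1.56%). Genes called lower were 1 with no filter, 32 with a filter at 50, 0 without the trend (1841 at an unadjusted p under 0.05), 124 with robust empirical Bayes and 205 with DESeq2 (47 to 219 with a library left out). Genes called higher were 1, 19, 0, 85 and 114 in the same order (49 to 178 with a library left out). The core clock genes called numbered 0 with no filter, 0 without the trend and 2 with DESeq2, beside the same shares of tested genes called lower. With the longest transcript as length, 5 of 9 members kept their place in the order of levels. No filter adds genes to the adjustment (27523 tested); the causes of the other shifts were not tested.

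Signs of values near 0 turned with a library left out, over -0.12 to 0.19 for Npas2, -0.15 to 0.028 for Arntl, -0.051 to 0.16 for Arntl2, -0.25 to 0.014 for Cry2, -0.023 to 0.10 for Tbl1x, -0.033 to 0.10 for Klf9, -0.022 to 0.15 for Jun, -0.10 to 0.045 for Irs2, -0.087 to 0.053 for Vegfa and -0.11 to 0.11 for Ndrg1. With a common upper quartile Vegfa was 0.0019 and Ndrg1 0.017. No paired analysis was possible because the control columns carry the numbers 2 and 3, which match the replicate numbers of the labels for at most 1 pair. Both the number of pools, 2 per genotype, and counting error limit these values. The gap between knockout libraries was under the counting standard deviation for 4 of 9 members, and the gap between control libraries for 0 of 9. For Ciart the gap was under it in both genotypes.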

Other observations

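Stimuli other than the clock are known to act on some of these genes, and lists of genes that respond to them gave the following values. Of 12 glucocorticoid-responsive genes 1 was called, the metallothionein gene Mt2, which was at 9221 and 10902 in controls and 6637 and 7576 in knockouts (log2 fold change -0.50, limma adjusted p = 0.0475). That call held in 8 of 14 alternatives and was lost with no filter, with the filter at 50, without the trend, with robust empirical Bayes, without control column 3 and without knockout replicate 1 (adjusted p from 5.36e-06 to 0.403 over the alternatives). The list was split, with 6 of 12 below 0 and a median of -0.04. Tsc22d3 and Ddit4, chosen after their values were seen, are glucocorticoid targets. Tsc22d3 was at 3626 and 3454 against 2931 and 3069, and Ddit4 was at 3258 and 2395 against 3480 and 3389. Per1 belongs to this list, to the cAMP list and to the core clock. Klf9 is in this list and among the rhythmic output genes, and Fosb is in both the immediate early and cAMP lists. The counts of these lists therefore share genes.

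Of 12 immediate early genes none passed the test (9 below 0, median -0.11), with Jun at 0.06 and Fosb at -0.15 on the log2 scale. Of 10 cAMP-responsive genes none passed (6 below 0, median -0.09), with Irs2 at -0.03. Of 13 tested hypoxia-responsive genes none passed (6 below 0, median 0.00), with Vegfa at -0.02 and Ndrg1 at 0.00. Of all tested genes 0.374% were called lower and 0.247% higher, and whether these lists differ from those shares was not tested. On the lower side groups did not overlap for 6 of 12 immediate early genes, 5 of 10 cAMP-responsive genes and 5 of 12 glucocorticoid-responsive genes. For 1 of 13 hypoxia-responsive genes they did not, and the share of all tested genes was 23.0%. On the higher side the counts were 1, 0, 2 and 2 in that order, against 22.0%. Bhlhe40 and Bhlhe41 are themselves known to be induced by hypoxia, and took opposite directions here.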
